A study of Mus musculus with 6 samples.

Results

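Expression of 7 genes of the retroelement silencing machinery was followed in mouse embryonic stem cells after vitamin D3 with and without inhibition of the histone methyltransferase MLL1. The genes were Trim28, Setdb1, Atf7ip, Mphosph8, Pphln1, Hells and Morc3, taken by name from the deposited tables, in which they are 7 of 49377 gene names. Each is 1 assembled locus that carries no other gene name. Cells of 1 group received 1α,25-dihydroxyvitamin D3 (VD3, the active hormone) at 1 µM together with MM-401, an MLL1 inhibitor, at 100 µM for 5 days. A second group received VD3 alone at 1 µM for 5 days, and the third was untreated, with no time given. All cells were blastocyst-derived C57BL/6J stem cells of genotype Mll1fl/fl; Cre-ER TM, so every group, untreated included, carried floxed Mll1 and a tamoxifen-inducible Cre. They were kept with leukemia inhibitory factor on fibroblast feeder cells, and no group had MM-401 alone. Each group comprised 2 libraries that the deposited tables pool into 1 column, so nothing below could be checked between replicates and no p-value is given. The column of untreated cells was matched by the start of its name, and that of VD3 plus MM-401 as the other column whose name starts with VD3; the labels leave the endings of these names unexplained, and another meaning would change every comparison with them.

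Retroelements are silenced in embryonic stem cells mainly through methylation of histone H3 at lysine 9. KRAB zinc finger proteins recognise retroelement sequences and recruit the corepressor TRIM28 (KAP1), which brings in the H3K9 methyltransferase SETDB1; ATF7IP stabilises SETDB1 in the nucleus. The HUSH complex joins TASOR, the H3K9me3 reader MPP8 (Mphosph8) and Periphilin (Pphln1), and also works with SETDB1. HELLS (LSH) is a SNF2-family remodeller needed for DNA methylation of repeats, and MORC3 is a GHKL-type ATPase that silences endogenous retroviruses.

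The pools held 73499639 estimated counts for VD3 plus MM-401, 73636342 for VD3 and 62284598 for untreated cells. Of 10 pluripotency markers, 10 were at 1 FPKM or more in every pool, with summed levels of 5869, 4755 and 3046 FPKM in VD3 plus MM-401, VD3 and untreated cells. Much of each sum was Pou5f1 (1832, 2053 and 1114 FPKM) and the locus of Dppa5a and Gsta2 (2088, 959 and 628), whose shares cannot be told apart. Klf4 was lower in both treated pools (63.0 and 62.6 against 76.2 FPKM), and the other markers were higher in both. With VD3, Sox2 and Zfp42 were at only 1.04 and 1.01 times untreated. Of 10 markers of fibroblasts, 3 reached 1 FPKM in each pool, with sums of 16.2, 23.6 and 16.9 FPKM. Thy1 and Acta2 were among them in each pool. The third was the locus of S100a4, S100a3 and Gm42674 with VD3 plus MM-401 (2.47 FPKM) and Col3a1 with VD3 and in untreated cells. Col3a1 was at 0.553 FPKM with VD3 plus MM-401 (0 to 1.24), below 3.93 with VD3 (2.5 to 5.36) and 4.19 in untreated cells (2.65 to 5.73) with bounds apart, while its estimated counts were 23.3, 10.7 and 13.8. Lum, a stromal proteoglycan gene, was at 0 in every pool. Markers of differentiated lineages summed to 14.5, 16.3 and 12.7 FPKM over 9 genes. The part of these markers in the results below was not tested.

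All 7 genes have a RefSeq promoter window (build GRCm38.p6, 250 bases before the start site to 50 after it), with 2 windows for Pphln1. CpG dinucleotides, which the CXXC domain of MLL1 binds when they are unmethylated, numbered 15 in the window of Setdb1 and 53 in the first window of Pphln1, the lowest and highest of the 8 windows, against a median of 7 over 32851 windows. The upstream stretches of the 3 genes with the lowest VD3 values relative to untreated cells, and of Trim28, which was not lower, are shown so that they can be compared. They lie at chr16:93831921-93832120 (Morc3), chr14:56668125-56668247 (Mphosph8), chr19:38930740-38930914 (Hells) and chr7:13023952-13024151 (Trim28), all on the plus strand, and leave out annotated exons. Capitals mark a CCAAT box (CCAAT) or a GC box (GGGCGG). These, an E2F site (TTTCCCGC) and a nuclear receptor half-site (AGGTCA) were searched on both strands.
Morc3: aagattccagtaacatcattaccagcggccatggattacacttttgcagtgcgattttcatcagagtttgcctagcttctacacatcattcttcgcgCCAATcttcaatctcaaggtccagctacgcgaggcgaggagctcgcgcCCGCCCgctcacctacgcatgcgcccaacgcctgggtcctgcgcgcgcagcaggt
Mphosph8: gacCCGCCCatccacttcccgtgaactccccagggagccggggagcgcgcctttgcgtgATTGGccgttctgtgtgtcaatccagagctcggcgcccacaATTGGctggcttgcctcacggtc
Hells: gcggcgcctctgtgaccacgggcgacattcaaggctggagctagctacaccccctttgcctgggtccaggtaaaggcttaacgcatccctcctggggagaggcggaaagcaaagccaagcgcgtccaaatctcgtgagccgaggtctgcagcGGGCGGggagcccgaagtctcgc
Trim28: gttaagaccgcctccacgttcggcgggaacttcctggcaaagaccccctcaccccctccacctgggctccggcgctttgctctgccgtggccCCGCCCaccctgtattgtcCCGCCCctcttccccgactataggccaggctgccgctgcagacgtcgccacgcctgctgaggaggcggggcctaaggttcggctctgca
A CCAAT box stood in the windows of 4 of 7 genes (37.4% of all windows hold one) and a GC box in those of 6 of 7 (35.7%). The members' windows hold more CpG than the median of all windows, so these shares are not a matched background. The E2F letters were in the window of Hells, outside the printed stretch (1.07% of all windows). The half-site was in the window of Morc3 across its start site, likewise not printed (16.3%). The DR3 vitamin D response element, a direct repeat of the half-site with a spacer of 3 bases, was in no member's window and in 0.00609% of all windows. The exact letters of that element are so rare that their absence here does not show that a response element is lacking. A match of letters is not a measured binding site.

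By FPKM, the authors' level per length and depth, Hells and Morc3 were the members with the lowest values in the treated pools relative to untreated cells, and Trim28 the one with the highest. Against untreated cells, VD3 gave 0.187 times the FPKM of Hells, 0.387 times that of Morc3 and 1.489 times that of Trim28, and VD3 plus MM-401 gave 0.233, 0.6003 and 1.84 times. A gene was called where it differed at least 2-fold and the authors' confidence bounds were apart, among genes of at least 5 FPKM in the higher pool. Morc3 was the 1 member of 7 called in VD3 against untreated, and it was lower. Of all 10911 genes, 5.14% were called in that comparison and 4.22% were called lower, and with 7 members a single call is not read as a result about them. In bulk RNA, fewer cells of a type and less RNA per cell cannot be told apart, here and below.

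Levels placed Trim28 far above the SETDB1 and HUSH genes in each pool. Trim28 ranked 27th, 25th and 28th among protein-coding genes of at least 1 FPKM with VD3 plus MM-401, with VD3 and in untreated cells. Its bounds lay above those of Setdb1, Atf7ip, Mphosph8, Pphln1 and Morc3 in every pool, and above those of Hells in the VD3 pool alone. Hells ranked 419th and 490th in the pools of both agents and of VD3, and 23rd in untreated cells. Pphln1 was the lowest member in each pool. Below Hells and Trim28 the bounds of members next to each other in level overlapped in every pool.

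**Figure D1:**
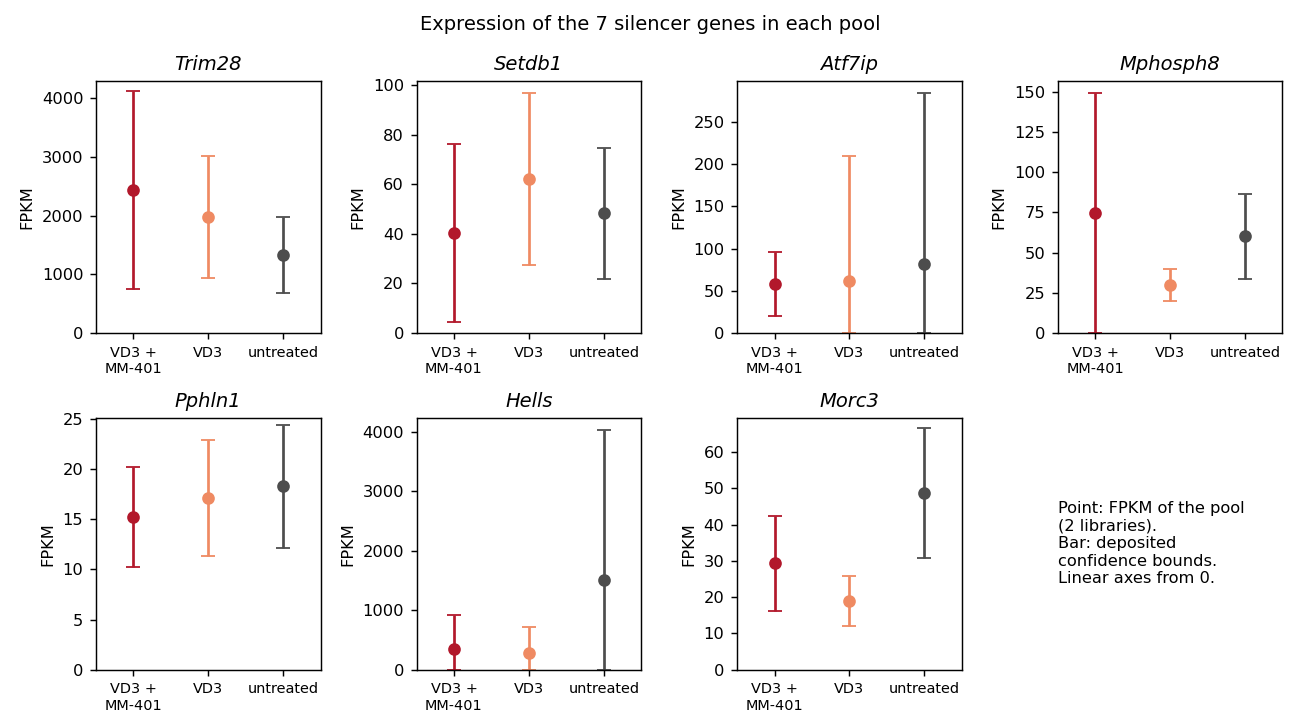
FPKM of each silencer gene (vertical axes, linear from 0) in the VD3 plus MM-401, VD3 and untreated pools (left to right); points are the pooled value of 2 libraries and bars the authors' confidence bounds, whose level is not given. The bounds of Morc3 in the VD3 pool (12.1 to 25.7) lie below those in untreated cells (30.9 to 66.8), while the bounds of Hells reach 0 in every pool.

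Trim28 (chromosome 7, 12999114 to 13031035), the corepressor gene, was at 2436 FPKM with VD3 plus MM-401 (752 to 4120), 1976 with VD3 (938 to 3014) and 1327 in untreated cells (681 to 1973). Both treated pools stood above the untreated one, with bounds that overlapped. The log2 differences from untreated (of FPKM + 1, as below unless by count) were 0.88 with both agents and 0.57 with VD3, of which 0.61 and 0.21 remained relative to the median gene of each comparison. By count they were 0.53 and 0.60, from 133415 ± 26268, 140010 ± 27875 and 92181 ± 17378 estimated counts (SD of the authors' count model), so the order of both treated pools was the other way round. Zbtb45, a zinc finger gene on the other strand within the annotated span of Trim28, was at 22.1, 22.7 and 12.9 FPKM, far below it. The printed promoter of Trim28 lies inside that span, since the GENCODE gene starts upstream of the RefSeq start site.

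Setdb1 (chromosome 3, 95323525 to 95357202), the methyltransferase gene, was at 40.4 FPKM with VD3 plus MM-401 (4.48 to 76.4), 62.3 with VD3 (27.5 to 97.1) and 48.3 in untreated cells (21.8 to 74.7). The pool of both agents was lowest and the VD3 pool highest, within overlapping bounds. Log2 differences were -0.25 for VD3 plus MM-401 and 0.36 for VD3 against untreated, and -0.61 for VD3 plus MM-401 against VD3; by count they were -0.23, 0.40 and -0.62. Relative to the median gene, the VD3 difference of Setdb1 was -0.00, which is the place of the median gene. Cers2, on the other strand, overlaps its end by 75 bases, at 60.1, 66.8 and 46.3 FPKM. Atf7ip (chromosome 6, 136506167 to 136610862) was at 58.1 (20.2 to 96.1), 62.1 (0 to 210) and 81.8 FPKM (0 to 284) in the same order of pools. Its untreated value was the highest, with log2 differences of -0.49 and -0.39 for VD3 plus MM-401 and VD3 against untreated (-0.36 and -0.18 by count).

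Among the HUSH genes, Mphosph8 (chromosome 14, 56668248 to 56697430) differed between pools in a way that depended on the quantity. It was at 74.7 FPKM with VD3 plus MM-401 (0.149 to 149), 29.6 with VD3 (19.7 to 39.6) and 60.2 in untreated cells (33.8 to 86.6). By FPKM the VD3 pool was low and the other pools were high, and bounds overlapped in every comparison. The VD3 level was 0.492 times the untreated one, a log2 difference of -0.999 on the scale of FPKM + 1 and of -1.02 with a pseudocount of 0.1, so it lay at the 2-fold limit. It was called with neither pseudocount, since the bounds shared the stretch from 33.8 to 39.6 FPKM. Estimated counts were 6556 ± 1145, 5709 ± 959 and 10733 ± 1808, so by count both treated pools were low and the untreated pool high. For VD3 plus MM-401 against untreated, the sign turned with the quantity, from 0.31 by FPKM to -0.71 by count. FPKM per count in the pool of both agents was 2.03 times that in untreated cells and 2.197 times that with VD3, at the 98.9th and 99.5th percentiles of 9781 gene names with over 500 counts in each pool. The log2 difference of VD3 plus MM-401 against VD3 was 1.31 by FPKM and 0.20 by count. Annotation places the lincRNA Gm16973 across its last 1151 bases on the other strand, at 5.93, 2.24 and 3.59 FPKM, and the counting is not stated to use strand.

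Pphln1 (chromosome 15, 93398350 to 93491510), a HUSH subunit gene, was at 15.2 FPKM with VD3 plus MM-401 (10.2 to 20.2), 17.2 with VD3 (11.4 to 22.9) and 18.3 in untreated cells (12.2 to 24.4). All 3 bounds overlapped over most of their width. Log2 differences were -0.25 for VD3 plus MM-401 and -0.09 for VD3 against untreated, and -0.24 and -0.08 by count.

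Hells (chromosome 19, 38930915 to 38971051) had the largest differences from untreated cells of any member. It was at 351 FPKM with VD3 plus MM-401, 281 with VD3 and 1506 in untreated cells. Both treated pools were low and the untreated pool high, but the authors' bounds (0 to 919, 0 to 719 and 0 to 4038 FPKM) overlapped. The log2 differences were -2.10 for VD3 plus MM-401 and -2.42 for VD3, each against untreated, and 0.32 for VD3 plus MM-401 against VD3. By estimated count, at 9958 ± 1652, 9247 ± 1609 and 41015 ± 7162, the ranges of 2 SD were apart for either treated pool against untreated, with log2 differences of -2.03 with both agents and -2.14 with VD3. The share of all genes that are 2-fold lower with such count ranges apart was 4.07% for VD3 plus MM-401 and 6.97% for VD3, each against untreated. Hells carried 36.7 FPKM per 1000 counts in untreated cells against 14.4 for Trim28, although its longest annotated transcript is longer (5868 and 3245 bases). Its FPKM is thus high for its counts, and by count Trim28 (92181) stood above Hells in untreated cells as well.

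Morc3 (chromosome 16, 93832121 to 93876073), the ATPase gene, was at 29.3 FPKM with VD3 plus MM-401 (16.3 to 42.3), 18.9 with VD3 (12.1 to 25.7) and 48.8 in untreated cells (30.9 to 66.8). The VD3 pool was lowest and the untreated pool highest, with the pool of both agents between and its bounds overlapping each of the others. The log2 difference was -1.32 for VD3 against untreated, -0.72 for VD3 plus MM-401 against untreated and 0.61 for VD3 plus MM-401 against VD3. Estimated counts were 5741 ± 982, 4598 ± 765 and 11105 ± 1828, which gave -1.26, -0.94 and 0.32. The antisense gene Gm30881 is annotated over 899 bases of Morc3, and has no value of its own in the tables.

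**Figure D2:**
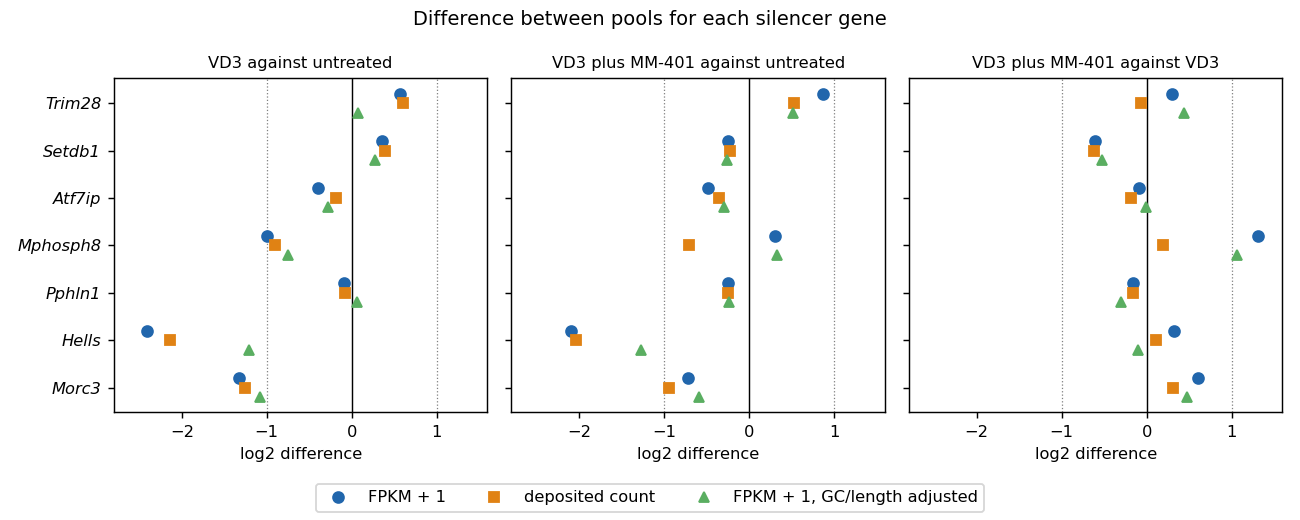
Log2 difference between pools (horizontal axis; dotted lines mark 2-fold) for each silencer gene by FPKM + 1 (circles), by deposited count (squares) and by FPKM + 1 after adjustment for GC content and transcript length (triangles), in the 3 comparisons. Hells is lowest against untreated by either quantity (-2.42 and -2.14 with VD3), and Mphosph8 in VD3 plus MM-401 against untreated lies on both sides of 0 (0.31 by FPKM and -0.71 by count).

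Over the 7 members, the median log2 difference was -0.39 for VD3 against untreated, where the median of all 10911 genes was 0.36. Of the 7, 6 lay below that median gene, Setdb1 by only -0.0024 relative to it, and 1, Trim28, above it. By count the member median was -0.18, against 0.36 over all genes. After adjustment for GC content and length, described below, it was -0.27 by FPKM (all adjusted genes 0.01) and 0.0117 by count (0.03). For VD3 plus MM-401 against untreated the member median by FPKM was -0.25 and that of all 10966 genes 0.27. There 5 of 7 were below the median gene and Trim28 and Mphosph8 above it. No member was called in that comparison by FPKM, where 6.94% of all genes were, 2.68% lower. By deposited count, Hells and Morc3 were called lower with VD3 (7.93% of all genes called, 6.97% lower) and Hells with both agents (9.25% called, 4.07% lower). Between both treated pools, 0 of 7 members were called by FPKM (1.37% of all genes) or by count (0.69%), and the member median was 0.30 by FPKM and -0.07 by count, against 0.02 over 10717 genes. Counts scaled to the pool total gave 3 lower members with VD3, 2 with both agents and 0 between the treated pools. Over all genes the shares called were 9.53%, 7.62% and 0.7% in either direction, with 1019 and 633 genes lower against untreated. Fold alone gave 2 lower members, 1 lower and 1 higher in the same order. In either direction it took in 12.2%, 19.6% and 6.68% of all genes. Of these, 949 genes were lower with VD3, 684 lower with both agents and 500 higher between the treated pools. The comparisons share pools: both differences from untreated use the same untreated pool, and the VD3 pool stands in 2 of the 3.

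Across all genes, transcripts of lower GC content had lower differences from untreated cells, and the members followed this only in part. GC content of the longest annotated transcript was 59.6% for Trim28, 48.3% for Setdb1, 47.7% for Atf7ip, 43.9% for Pphln1, 43.5% for Morc3, 42.6% for Mphosph8 and 37.7% for Hells. In VD3 against untreated, 8788 protein-coding genes were split by GC content into 5 bins of equal size. The lowest bin, which holds Mphosph8, Pphln1, Hells and Morc3, had a median difference of -0.59, and the highest, which holds Trim28, one of 0.52. Across these genes the Spearman correlation of the difference was 0.547 with GC content and -0.411 with transcript length; genes of a library share its composition and are not independent. The values of the next sentences set each member against genes within 1 percentage point of its GC content. Morc3 stood at the 8th percentile of 800 such genes (their median -0.22), Atf7ip at the 9.18th of 937 (0.33), Hells at the 3.37th of 178 (-1.21) and Mphosph8 at the 20.7th of 682 (-0.39). Pphln1, Setdb1 and Trim28 were near the middle, at the 53.4th, 48.6th and 59.1st percentiles. By count Hells was at the 24.7th percentile and Morc3 at the 11.4th. After a least-squares adjustment for GC content and length, the VD3 differences were -1.21 for Hells, -1.07 for Morc3, -0.75 for Mphosph8 and 0.08 for Trim28. Morc3 was still called, as 1 of 205 genes lower among 10911. The adjustment changed the differences and not the bounds, by FPKM or by count, so only the 2-fold part of a call was examined anew. The same adjustment of deposited counts gave -0.95 for Morc3 and -0.72 for Hells, and neither was called with VD3 (2.63% of all genes lower). With both agents it gave -1.06 for Hells, which was called (1.84% of all genes lower). With VD3 plus MM-401 the correlation was 0.381 with GC content and -0.544 with transcript length, so that with length was the stronger there. Mphosph8, at 42.6% GC, was at 0.31 by FPKM with both agents, above Setdb1 (-0.25) and Atf7ip (-0.49). By count Mphosph8 was at -0.71, below Setdb1 (-0.23) and Atf7ip (-0.36). With VD3, Pphln1 was above Atf7ip, whose GC content is higher, by FPKM (-0.09 and -0.39) and by count (-0.08 and -0.18). What part of the differences GC content or length accounts for was not tested.

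**Figure D3:**
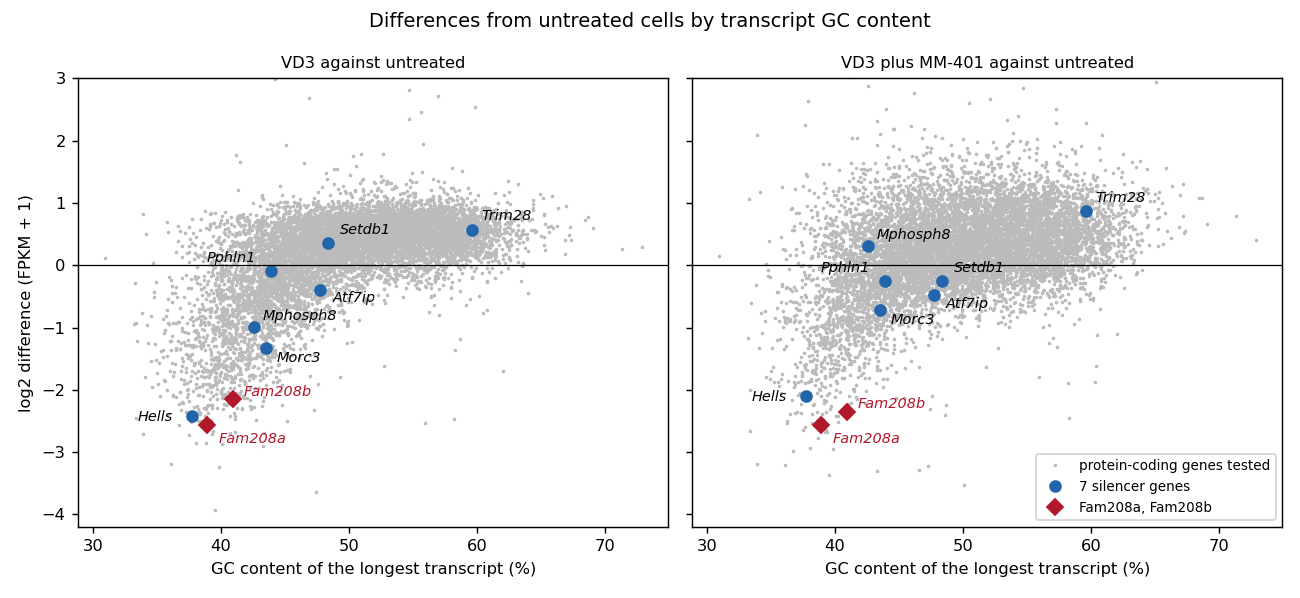
Log2 difference of FPKM + 1 from untreated cells (vertical axis) against GC content of the longest annotated transcript (horizontal axis, percent) for VD3 (left) and VD3 plus MM-401 (right); grey points are tested protein-coding genes (8788 and 8809, of which 8 and 16 lie above the axis), blue points the 7 silencer genes and red diamonds Fam208a and Fam208b. Trim28 sits at the GC-rich end above 0 and Hells at the AT-rich end at -2.42 and -2.10.

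Genes that work with the members, and genes linked to a retrovirus they silence, were read from lists of 53 names at 52 loci. In VD3 against untreated, 0 of 41 tested loci were higher and 5 were lower (4.22% of all genes lower), with a median of -0.04. With VD3 plus MM-401, 0 of 41 were higher and 3 lower (2.68% of all genes lower), with a median of -0.11. By count 10 loci were lower with VD3 (6.97% of all genes) and 6 with both agents (4.07%).

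The relatives of HUSH and ATF7IP stood lowest as a list, with medians of -2.26 with VD3 and -2.45 with both agents over 4 loci. After adjustment for GC content and length the medians were -1.29 and -1.68, without 2810474O19Rik, which had no transcript to adjust by. Called lower were Fam208a and Atf7ip2 with VD3 (4.22% of all genes lower), and Fam208a and 2810474O19Rik with both agents (2.68%). Fam208a, the gene of the HUSH scaffold TASOR, was at 2.76 FPKM with VD3 plus MM-401 (1.65 to 3.88), 2.75 with VD3 (1.69 to 3.82) and 21.2 in untreated cells (13.6 to 28.7). It fell in both treated pools by the criterion, at -2.56 in each comparison with untreated. Under 5 FPKM in both treated pools, it was not compared between them. Among genes of like GC content these values stood at the 2.55th percentile with both agents and the 1.92nd with VD3, and after adjustment they were -1.74 and -1.45. For the 3 HUSH subunits, VD3 against untreated gave -2.56 for Fam208a, -0.999 for Mphosph8 and -0.09 for Pphln1. No test of these differences between genes can be made from pooled columns.

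Fam208b, which encodes the TASOR paralogue TASOR2, was at 3.44, 4.08 and 21.6 FPKM in VD3 plus MM-401, VD3 and untreated cells, with bounds that reach 0 in every pool. 2810474O19Rik, the RefSeq synonym of Resf1, whose product cooperates with SETDB1 in silencing endogenous retroviruses, was at 8.97 (5.42 to 12.5), 11.5 (1.10 to 21.9) and 63.6 FPKM (18.2 to 109). It fell with VD3 plus MM-401 by the criterion (-2.70), while with VD3 (-2.37) the bounds overlapped. By count 2810474O19Rik was called lower with both agents (-2.23, 4.07% of all genes lower) and with VD3 (-2.38, 6.97%). Atf7ip2, a paralogue of Atf7ip, was at 5.10, 2.24 and 6.32 FPKM and fell with VD3 (-1.18).

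Among KRAB zinc finger genes, 2 of 6 loci were lower with VD3 (4.22% of all genes) and 0 of 6 with both agents (2.68%). By count 4 were lower with VD3 (6.97% of all genes) and 3 with both agents (4.07%). Zfp445, which with ZFP57 maintains imprints, was at 13.6 FPKM with VD3 plus MM-401 (5.56 to 21.6), 9.36 with VD3 (3.36 to 15.4) and 44.0 in untreated cells (16.4 to 71.7). It fell with VD3 (-2.12) and was at -1.63 with both agents, where the bounds overlapped. By count Zfp445 was called lower with both agents as well (-1.62). Zfp57 itself was at 338, 333 and 338 FPKM, the highest of the list and level across pools. The locus that holds Zfp708, Rslcan18 and Gm28557, whose shares cannot be told apart, was at 2.33, 2.1 and 5.79 FPKM and fell with VD3 (-1.13). Zfp809, which recognises the primer binding site of murine leukaemia virus, was at 21.4, 15.9 and 34.8 FPKM with overlapping bounds, and 2-fold lower with VD3 by count (-1.36).

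Among partners and relatives of TRIM28, 0 of 10 tested loci were called by FPKM with VD3 (5.14% of all genes) or with both agents (6.94%), each against untreated. The highest locus of that list holds Sumo3 together with Ube2g2 and Mir1930, whose shares cannot be told apart, and was at 322, 538 and 302 FPKM in VD3 plus MM-401, VD3 and untreated cells. Cbx3, the gene of HP1γ, was at 12.2, 8.96 and 22.1 FPKM (-1.22 with VD3), and Trim33, a TRIM28 relative, at 31.1, 31.5 and 69.5 FPKM (-1.13 with both agents). The FPKM bounds of these 3 loci overlapped with those in untreated cells. By count, Cbx3 (-1.25) and Trim33 (-1.05) were called lower with VD3 (6.97% of all genes lower). Neither was called by count with both agents (4.07%). Cbx3 has processed pseudogenes that could share reads, so its level is uncertain.

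All 6 loci of the DNA methylation list, which includes the HELLS partner Cdca7, were above 0 in VD3 against untreated, with a median of 0.43. Of these, 4 were above the median gene, and 0 of 6 were called (5.14% of all genes). The median was 0.02 after adjustment for GC content and length. With VD3 plus MM-401 the median was 0.10, with 2 of 6 below 0 and 5 of 6 below the median gene. There 0 of 6 were called (6.94% of all genes). Dnmt3l, the cofactor of the de novo methyltransferases, was at 299, 273 and 145 FPKM (1.04 with both agents and 0.90 with VD3), with bounds that overlapped. Dnmt3a was the highest of the list, at 382, 395 and 325 FPKM. Of the other H3K9 methyltransferases, 0 of 5 were called against untreated with VD3 (5.14% of all genes) or with both agents (6.94%). Ehmt2 (G9a) was at 134, 106 and 61.9 FPKM. With both agents it was at 1.11 by FPKM but 0.53 by count, and the FPKM bounds overlapped. Suv39h2 was at 20.8, 13.4 and 25.4 FPKM (-0.87 with VD3 and -0.98 by count). In the MORC family, 0 of 3 tested loci were called in either comparison with untreated (5.14% and 6.94% of all genes). With lists of 3 to 6 loci, 0 calls is not read as a result about them. Morc2a, whose human orthologue MORC2 works with HUSH, was at 36.8, 64.5 and 42.7 FPKM, and Morc4 at 7.34, 10.9 and 11.5 FPKM. With VD3, Morc2a was at 0.59 by FPKM and 0.09 by count. Kdm1a, the H3K4 demethylase LSD1, was at 138, 178 and 143 FPKM.

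Of the histone chaperones and H3.3 genes, Atrx was called lower with VD3 (4.22% of all genes lower) and with both agents (2.68%). Called higher were 0 of 6 loci, against 101 of 10911 genes with VD3 and 467 of 10966 with both agents. Atrx, the remodeller that deposits H3.3 at repeats with DAXX, was at 14.8 FPKM with VD3 plus MM-401 (6.05 to 23.5), 9.65 with VD3 (2.95 to 16.3) and 162 in untreated cells (44.8 to 279). It had the lowest difference of any gene in these lists (-3.37 with both agents and -3.94 with VD3). Daxx was at 117, 112 and 63.2 FPKM with overlapping bounds (0.88 with both agents and 0.82 with VD3). H3f3b, an H3.3 gene, was the highest of the list at 510, 337 and 270 FPKM.

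**Figure D4:**
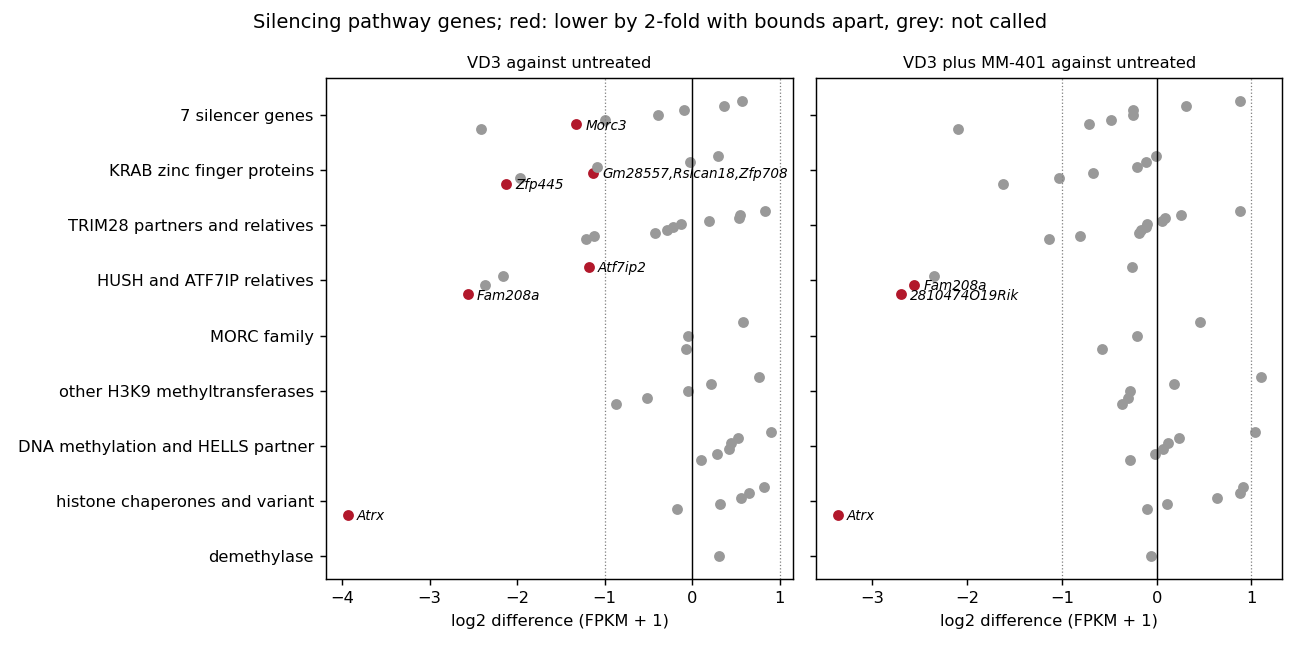
Log2 difference of FPKM + 1 from untreated cells (horizontal axis; dotted lines mark 2-fold) for each tested locus of the silencer genes and of the pathway lists (rows), with VD3 (left) and VD3 plus MM-401 (right). Named red points are 2-fold lower with bounds apart and grey points were not called; with both agents 2 of these are Fam208a (-2.56) and Atrx (-3.37).

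Genes of the 2-cell program that are linked to the endogenous retrovirus MERVL, and that rise in stem cells when TRIM28 or SETDB1 is lost, were read as a list of 9. In none of the pools did any of them reach 1 FPKM. The highest with VD3 plus MM-401 (0.290 FPKM) and with VD3 (0.754 FPKM) was the locus of Tcstv1 and B020031M17Rik, whose shares cannot be told apart. In untreated cells it was Tcstv3, at 0.525 FPKM. Their summed levels were 0.617, 1.79 and 1.57 FPKM in the order of pools above, with 4, 1 and 0 genes at 0. Zscan4 copies are near-identical, so their single values are uncertain. Transcripts of retroelements themselves were not analysed here.

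The protein-coding gene nearest to each member was found by the distance between pairs of log2 differences from untreated, over 7794 genes of at least 5 FPKM in each pool. With 3 pools the measure rests on 2 values that share the untreated pool. Nearest were Hook1 to Hells (distance 0.05, 7 genes within 0.25), Zfc3h1 to Mphosph8 (0.03, 15 genes) and Pnpt1 to Morc3 (0.03, 73 genes). Frs2 was nearest to Atf7ip (0.02, 263 genes), Ddhd1 to Pphln1 (0.01, 503 genes), Msn to Setdb1 (0.01, 515 genes) and Dpm3 to Trim28 (0.01, 936 genes). Genes within that distance were few for Hells and Mphosph8 and many for Trim28. This number depends on how far a member lies from most genes, so it is not a separate result. Genes that fell under 5 FPKM in a pool, such as Fam208a, were not among the candidates. The pattern of Mphosph8 is that of FPKM alone: -0.999 with VD3 and 0.31 with both agents, against -0.90 and -0.71 by count.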

How the data were processed

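RNA sequencing libraries of 6 samples, 2 per group, were built with a TruSeq kit, per the labels. The authors' processing, per the submitters' processing notes, named Cufflinks 2.2.1, SAMtools 1.5, TopHat2 2.1.1 and build mm10; settings and order were not given in the sources used here. Per the file headers, the deposited tables give FPKM with lower and upper bounds, and the deposited count table gives an estimated count and its variance for 62490 loci, pooled per group. The bounds' level is not given. The 14 loci without a valid status were left out. Loci that share a name were summed. A locus with 1 protein-coding name was assigned to it, and other loci kept all names. FPKM per count was in the median 1 time that of the other pool over gene names with over 500 counts, so counts were compared as deposited, a choice made after seeing the data.

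Differences are log2 ratios of FPKM + 1, which understates those of low genes, for genes that reach 5 FPKM in the higher pool. Calls need a 2-fold difference with bounds apart (for counts, ranges of 2 SD apart). The counts had been foreseen for a test across libraries, which pooled columns do not allow. Members, lists and the call criterion were chosen with earlier results of these data known. Named are all members and, per list, called genes, the highest by mean FPKM and the largest differences from untreated, with a few others (Zfp809, Fam208b, Daxx) chosen after their values were seen. A result on 1 listed gene is not reported here. Coordinates and transcripts come from GENCODE vM21 on GRCm38, the build of mm10, and promoters from RefSeq GRCm38.p6. Calls and adjustment were tested on simulated data with bounds narrower than those of any member and a trend in GC content alone. That test does not show how well they do on these data. Python 3.11.15, pandas 2.3.3 and numpy 2.4.6 were used. Alternatives changed the quantity, scaling, pseudocount, filter, loci, call and GC adjustment.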

Additional observations from a re-analysis of the deposited data

How the results depend on the processing

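No paired analysis was possible because the tables hold 1 pooled column per group and none per library, and for the same reason no replicate could be left out. The number of members called in VD3 against untreated, 1 by FPKM, was 3 by counts scaled to the pool total (scaled counts) and by counts over size factors (Hells, Morc3 and Mphosph8, all lower), 2 by counts as deposited and 2 by fold alone (Hells and Morc3), and 0 by counts as deposited after GC and length adjustment, an alternative added after seeing the data. In VD3 plus MM-401 against untreated, 0 by FPKM became 2 by scaled counts and by size factors (Hells and Morc3) and 1 (Hells) by fold alone, by counts as deposited and by these after adjustment. In VD3 plus MM-401 against VD3, 0 became 1 by fold alone (Mphosph8, higher). The member median in VD3 against untreated was -0.75 when centred on the median gene and 0.0117 by adjusted counts, against -0.39 by FPKM. In VD3 plus MM-401 against VD3 it was -0.0669 by scaled counts, -0.0696 by counts as deposited and -0.0747 by these after adjustment, -0.0058 by size factors and -0.0124 by adjusted FPKM, against 0.30 by FPKM. Pseudocount, filters and the treatment of loci kept every count of called members and moved no member by more than the authors' count SD. Where adjustment or counts changed a call, the cause was not tested. Over all genes, calls in VD3 against untreated were 101 higher and 460 lower by FPKM, 21 and 1019 by scaled counts, 20 and 1033 by size factors, 104 and 761 by counts as deposited and 45 and 205 by FPKM after adjustment. In VD3 plus MM-401 against untreated they were 467 and 294, 203 and 633, 258 and 591, 568 and 446, and 92 and 182. Deposited counts after adjustment gave 12 and 287 with VD3 and 66 and 202 with both agents. Centring gave 54 and 474 with VD3 and 299 and 303 with both agents. In VD3 plus MM-401 against VD3 they were 89 and 58 by FPKM, 65 and 10 by scaled counts, 86 and 7 by size factors, 64 and 10 by counts as deposited and 49 and 54 by FPKM after adjustment. By fold alone they were 386 and 949, 1466 and 684, and 500 and 216 in the order of comparisons above. The median gene in VD3 against untreated was at 0.36 by FPKM and 0.13 by scaled counts. Members had between 3810 and 140010 counts in a pool.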
